A study of Mus musculus with 12 samples.

Results

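CD4 T cells of S100a9 knockout mice after repeated social defeat stress were compared with those of wild-type mice after the same stress, over the 87 genes that the authors listed for this comparison, of 2999 genes listed in any of their CD4 tables. All 87 listed genes were taken, with none added or removed, and 6 mice carry the comparison. The study measured single-cell transcriptomes of splenocytes from 12 mice. The wild-type (WT) mice were C57Bl6/J and the knockout (KO) mice S100a9-/- C57Bl6/J. Each genotype had 3 mice without stress and 3 mice given 10 days of social defeat, in which a mouse is repeatedly attacked by an aggressive one. A day of behaviour testing followed, and spleens were taken on day 12. The genotype label names no promoter or cell type for the deletion. Sex, age, litter, cage and library batch are not given in the sources used here, so any of these that followed the genotype cannot be told apart from it.

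Calprotectin, the pair of S100a8 and S100a9, is an abundant protein of neutrophils and monocytes that is released in inflammation and acts as an alarm signal on other cells. CD4 T cells, the helper cells of adaptive immunity, make little of it. Repeated social defeat is known for releasing myeloid cells into blood and spleen and for changing cytokine production by lymphocytes.

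The deposited value of a gene is its average expression over the cells called CD4 in 1 mouse, on a linear scale. In such an average, fewer cells with a transcript and less transcript per cell cannot be told apart. The listed CD4 genes of a mouse summed to between 8120 and 8225 units in the 6 stressed mice. Markers of the label were present. In these mice Cd4, the coreceptor, lay between 1.66 and 2.47, and Cd3d, a chain of the receptor complex, between 9.47 and 10.7. Trbc2, a T cell receptor constant region, lay between 19.0 and 21.01, against 0.0526 to 0.269 for Cd8a. The 2 listed genes of the CD8 T cell marker list summed to between 0.403 and 1.15 units and overlapped between the genotypes. Natural killer cell genes, some of which activated T cells also make, summed to between 10.6 and 42.7 units over 11 genes and overlapped between the genotypes.

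S100a9, the targeted gene, was not among the 87. It stood at 0.111, 0.0595 and 0.106 in WT stress mice and at 0.0294, 0.0230 and 0.0228 in KO stress mice, which was lower in every KO mouse without passing the test (log2 difference -0.61 ± 0.14 SE, limma adjusted p = 0.211). Without stress the order was the reverse of the label, with 0.00449, 0.0167 and 0.0119 in WT and 0.0493, 0.0418 and 0.0437 in KO mice. The part of the gene that was removed is not given in the sources used here, so it is unknown whether a count of transcript ends tests the deletion. WT and KO therefore stand throughout for mice labelled so. Its partner S100a8 overlapped between the genotypes, at 0.151, 0.0529 and 0.0697 in WT and 0.124, 0.0736 and 0.0711 in KO stress mice.

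Of the 87 genes, 37 were higher and 50 lower on average in KO stress mice. Differences below are KO minus WT on the scale of log2(value + 0.1), with standard errors, tested with limma over all 2999 listed genes and adjusted by the Benjamini-Hochberg method. At an adjusted p under 0.05, Gm28438 rose, and mt-Nd3 and Ifi208 fell. They were the only 3 of the 2999 genes called, a background of 0.0333% higher and 0.0667% lower. With 1 mouse left out, 1 member was called higher in each case, and the count called lower was 1 without WT mouse 1, WT mouse 2, KO mouse 2 or KO mouse 3, 4 without WT mouse 3 and 3 without KO mouse 1. Because the list was drawn up from these 6 mice, its counts here describe how it was chosen and are no independent evidence. Before adjustment, 33 members were higher and 32 lower at p under 0.05, beside 5.4% and 3.1% of all listed genes. In 27 members every KO mouse lay above every WT mouse, and in 31 every KO mouse lay below, beside 8.57% and 5.57% of all listed genes.

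**Figure D1:**
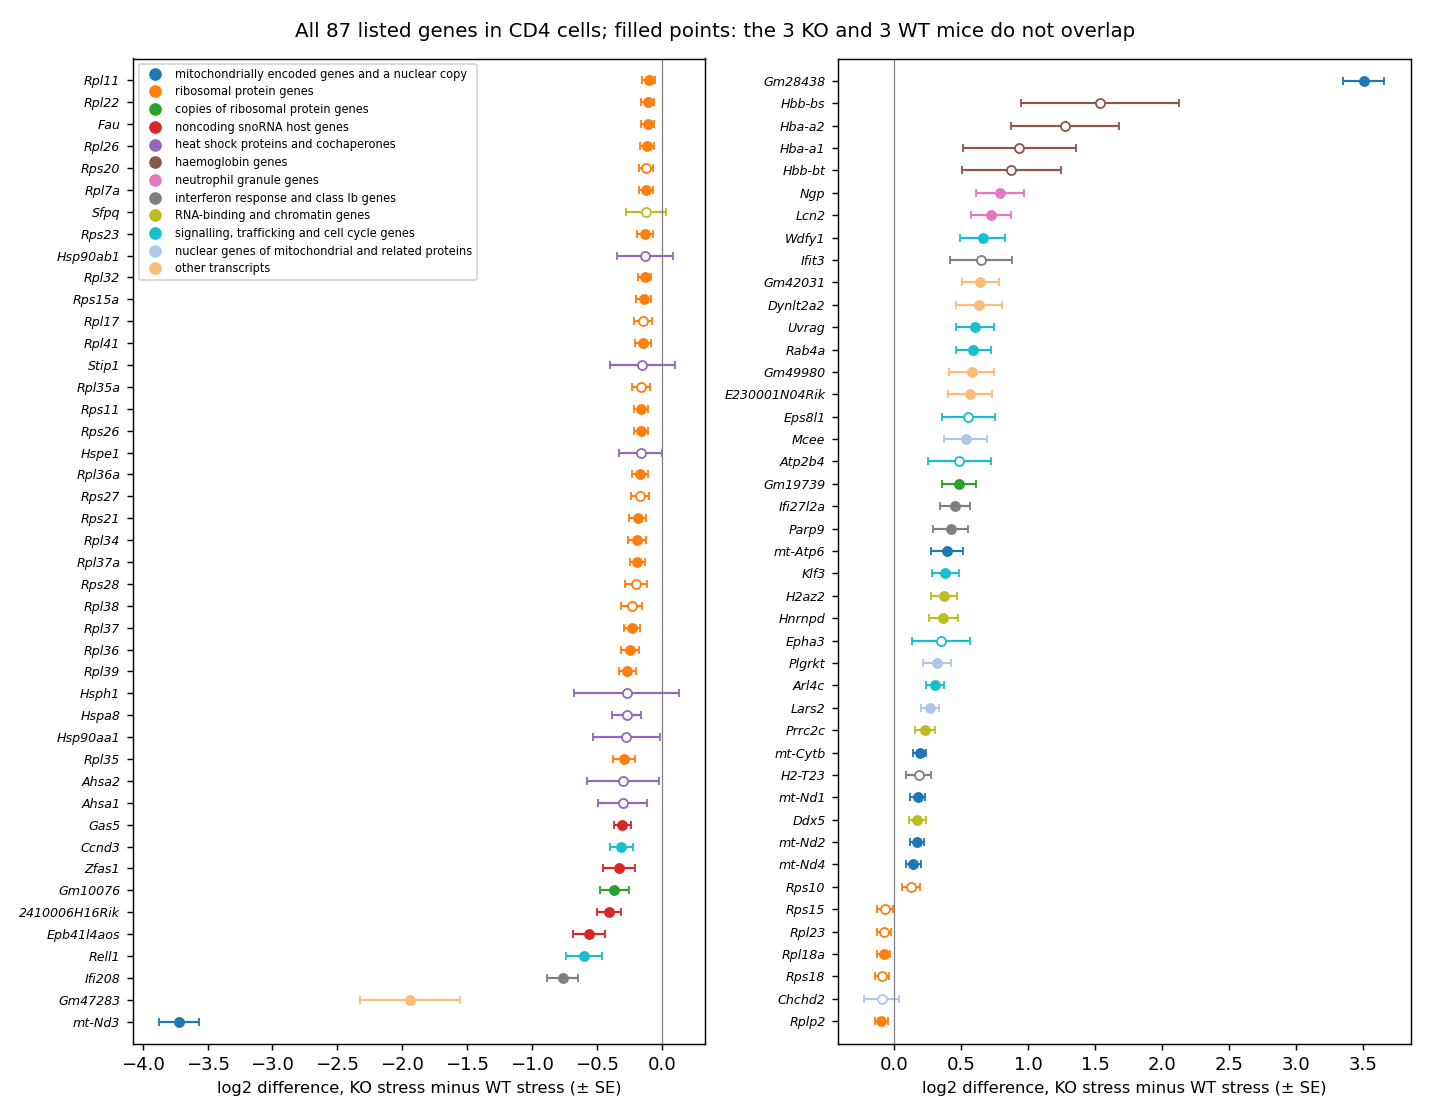
Genotype difference of each of the 87 genes in CD4 cells under stress (x axis, log2 difference of KO minus WT with its standard error as the bar), coloured by the role of the gene, 3 mice per group. Filled points are genes whose KO and WT mice do not overlap, and most sit within 1 log2 unit of 0, with mt-Nd3, Gm47283 and Gm28438 far outside.

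The extremes at both ends were a mitochondrial gene and its nuclear copy. mt-Nd3 (chrM:9459-9806, plus strand, mm10) encodes a subunit of respiratory complex I. Gm28438 (chr1:24612775-24613119, minus strand) is annotated as an unprocessed pseudogene. Over 345 aligned bases the 2 sequences differ at 1 base, T3C, counted from 1 at the first base of mt-Nd3 (99.7% identity), which is position 9461 of the mitochondrial genome. They are shown here because a read placed on one could, but for that base, be placed on the other. The first 60 bases of each, 5′ to 3′ from GENCODE M21, carry the differing base in capitals.
mt-Nd3: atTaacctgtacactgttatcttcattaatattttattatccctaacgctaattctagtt
Gm28438: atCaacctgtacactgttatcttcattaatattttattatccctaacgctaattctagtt

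mt-Nd3 measured 1.53, 1.26 and 0.993 in WT stress mice and 0, 0.00602 and 0 in KO stress mice. Gm28438 measured 0.00451, 0 and 0.00498 in WT and 1.11, 1.29 and 0.855 in KO stress mice. In each WT mouse the value of the pair was thus assigned almost wholly to the gene, and in each KO mouse to the copy. Which of the 2 was transcribed was not tested. The log2 difference was -3.72 ± 0.16 for mt-Nd3 and 3.51 ± 0.15 for Gm28438 (limma adjusted p = 1.15e-07 for each). Its size rests on the constant added to low values: with 0.01 in place of 0.1 mt-Nd3 gave -6.74 and Gm28438 6.39, and with 1 they gave -1.17 and 1.05. Added together, gene and copy came to 1.26 ± 0.27 (SD, n = 3) in WT and 1.09 ± 0.22 in KO stress mice, which overlapped.

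The same exchange was present in the 6 unstressed mice, none of which is part of the comparison that the genes were listed for. There mt-Nd3 measured 2.03, 2.77 and 2.56 in WT and 0.00857, 0.00301 and 0.00594 in KO mice, and Gm28438 0.00136, 0.00716 and 0.00335 against 1.05, 0.980 and 1.62. The limma adjusted p was 1.11e-07 for mt-Nd3 and 6.78e-06 for Gm28438. Without stress the sum of the 2 was 2.46 ± 0.38 in WT and 1.22 ± 0.35 in KO mice, with no overlap. In the CD8a cells of the stressed mice, mt-Nd3 fell, with a difference of -3.83 ± 0.16, and Gm28438 rose, with a difference of 3.69 ± 0.14. Which base the reads of KO mice carried at the differing position cannot be read from averages and was not tested.

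**Figure D2:**
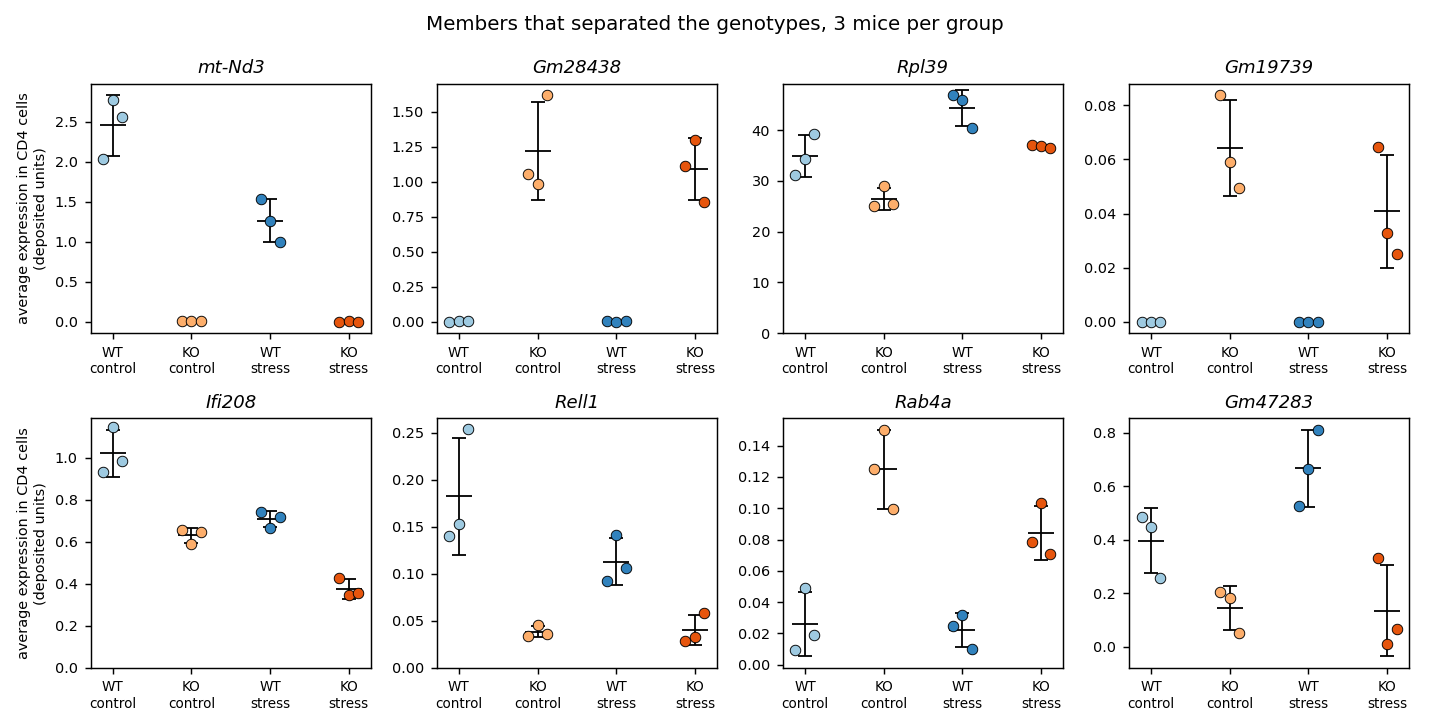
Average expression (y axis, deposited units) of 8 members in the CD4 cells of each mouse by group, with 3 mice a group as points and the mean ± SD as lines. In mt-Nd3, Gm28438 and Gm19739 the genotypes separate from near 0 with and without stress, while Rpl39 separates by a small step.

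A second copy showed the same split at a lower level. Gm19739 (chr3:90651714-90651866, minus strand) is a processed pseudogene of Rpl39, a protein of the large ribosomal subunit, and lies 40766 bases from S100a9 (chr3:90692632-90695721). It was listed at 0 in all 6 WT mice, at 0.0645, 0.0327 and 0.0252 in KO stress mice and at 0.0839, 0.0589 and 0.0494 in KO mice without stress, so no fold is given. The unstressed mice passed the test (limma adjusted p = 0.032) and the stressed ones did not (0.325). Within 5 Mb of S100a9 there were 46 other listed genes, 5 of which (10.9%) did not overlap between the genotypes under stress, beside 14.1% of all listed genes. Gm19739 was the only one of the 46 separated in the same direction with and without stress. The other member in that window is Rps27, a protein of the small ribosomal subunit.

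The parent gene and the copy are compared here since sequences this alike can share reads. They are the 153 bases of the copy and the matching stretch of its parent, from GENCODE M21, with the 6 differing bases in capitals (C22T, G30A, G54A, G77A, G83A and A142G, counted from 1 at the first base shown, with the base of Rpl39 first, 96.1% identity).
Rpl39: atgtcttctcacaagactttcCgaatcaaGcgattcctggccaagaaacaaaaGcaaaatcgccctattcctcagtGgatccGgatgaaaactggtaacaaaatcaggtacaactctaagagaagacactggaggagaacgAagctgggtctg
Gm19739: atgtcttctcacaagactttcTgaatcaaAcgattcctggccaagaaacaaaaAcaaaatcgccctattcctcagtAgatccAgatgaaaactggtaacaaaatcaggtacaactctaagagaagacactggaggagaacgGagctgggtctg

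Rpl39 itself measured 47.0, 46.0 and 40.4 in WT and 37.0, 36.9 and 36.6 in KO stress mice, a log2 difference of -0.27 ± 0.06 (limma adjusted p = 0.215). The copy came to between 0.0688% and 0.174% of the pair in KO stress mice, and the step in Rpl39 was many times the value of the copy. Gm10076, annotated as a long noncoding RNA and known as a likeness of Rpl41, which was not aligned here, went the other way from Gm19739. It measured 3.74, 3.17 and 2.63 in WT and 2.502, 2.54 and 2.22 in KO stress mice (-0.37 ± 0.11, limma adjusted p = 0.384). Reads from such near copies cannot be assigned with certainty, so both genes and their parents are uncertain.

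The remaining 5 mitochondrially encoded members were mt-Cytb of complex III, mt-Nd1, mt-Nd2 and mt-Nd4 of complex I, and mt-Atp6 of ATP synthase. Each was higher in every KO stress mouse than in any WT stress mouse, beside 8.57% of all listed genes. The differences of the 5 lay between 0.14 and 0.40, and the smallest limma adjusted p among them was 0.325, for mt-Cytb. mt-Cytb measured 45.2, 44.2 and 45.0 in WT and 50.6, 53.0 and 49.99 in KO stress mice. mt-Atp6 measured 0.551, 0.434 and 0.497 against 0.656, 0.637 and 0.747. Summed, the 5 genes came to 107.3, 107.4 and 107.4 in WT and to 119.3, 125.6 and 120.0 in KO stress mice. They were listed for their difference in these mice, and the sum of all 12 listed mitochondrially encoded genes overlapped, at 461.9, 408.9 and 383.0 in WT and 418.2, 430.2 and 409.8 in KO stress mice. Without stress the sums of the 5 in KO mice were 149.9, 147.7 and 167.4 and overlapped the WT sums of 153.7, 137.2 and 134.3. Of the 12 listed mitochondrially encoded genes, 9 were higher and 3 lower under stress. The nuclear genes of oxidative phosphorylation did not share this split, with 30 of 82 higher, and none of them is a member.

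Ribosomal protein genes made up 31 of the 87 members, the largest group by role. They code for the proteins of the cytosolic ribosome, and 30 of the 31 were lower on average in KO stress mice, Rps10 being the exception. In 21 of the 30 the genotypes did not overlap, beside 5.57% of all listed genes lower without overlap. Each step was small: the median difference was -0.15, the range -0.29 to 0.13, and 0 of 31 passed the test (smallest limma adjusted p 0.215). At p under 0.05 before adjustment, 21 were lower, beside 3.1% of all listed genes. The split of 30 lower and 1 higher was the same when any 1 of the 6 stressed mice was left out. It was also the same with values centred on each mouse's median and with values scaled to a common total of other genes. Both rescalings moved the differences down, the median of the 31 to -0.17 and -0.18, so the 30 lower genes could not turn higher. The 31 genes were listed from these same mice. In the 21 without overlap, leaving out a mouse cannot turn the direction.

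Rpl35 showed the widest step of the group, at 19.0, 18.4 and 15.1 in WT and 14.9, 14.4 and 13.4 in KO stress mice (-0.29 ± 0.08). Rpl36, at 29.1, 28.5 and 24.2 against 22.6, 23.3 and 22.8, and Rpl37, at 35.3, 34.7 and 30.4 against 28.5, 28.5 and 28.1, had the same form. In all 3 genes WT stress mouse 3 lay nearest to the KO mice. The 31 genes summed to 1303, 1316 and 1222 in WT and 1179, 1164 and 1134 in KO stress mice. KO stress mouse 3 was the lowest of the 6 mice in 23 of the 31 genes.

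In the unstressed mice, too, 30 of the 31 members were lower, with a median difference of -0.25. Of these, 24 did not overlap, beside 6.24% of all listed genes lower without overlap. Rpl35 and Rpl38 passed the test, beside 0.2% of all listed genes called lower. Rpl38 measured 15.2, 16.9 and 19.7 in WT and 10.9, 9.69 and 11.2 in KO mice without stress (-0.69 ± 0.10, limma adjusted p = 0.032). The sums of the 31 genes were 895, 951 and 1044 in WT and 766, 836 and 802 in KO mice. Most markers on several lists of other cell states and cell types were higher in the same unstressed KO mice. So were 66.2% of all listed genes. Of 33 listed genes of activated, effector and memory T cells 30 were higher (median 0.66), with sums of 29.2 to 37.1 in WT and 40.5 to 74.5 in KO mice. All 7 Th17-type genes were higher, and 4 were called, beside 0.433% of all listed genes called higher. Natural killer cell genes were higher in 10 of 11, with sums of 3.76 to 6.01 against 6.08 to 10.6, and monocyte, macrophage and dendritic genes in 13 of 14, with sums of 8.87 to 8.91 against 10.1 to 13.8. Under stress the sums of the activated, natural killer and monocyte lists overlapped. Of 12 listed naive and resting T cell genes, 8 were lower and 4 higher without stress (median -0.06). The part of cell states or other cells in the ribosomal difference was not tested. Of all 86 listed ribosomal protein genes, 70 were lower under stress and 76 without it, beside 43.9% and 33.7% of all listed genes. These counts include the members. Of the 55 that are not members, 40 were lower under stress (median -0.06) and 46 without it (median -0.07), a smaller tilt. Under stress 0 of the 55 had an unadjusted limma p under 0.05, against 21 of the members, which were listed from those mice. The 31 members had a median longest transcript of 917 bases in GENCODE M21, and the other 55 of 1128 bases.

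All 4 noncoding snoRNA host genes on the list were lower in every KO stress mouse than in any WT stress mouse. Of all listed genes 5.57% were lower without overlap, and these snoRNA host genes were listed from the same mice. Such genes carry small nucleolar RNAs, guides for the chemical modification of ribosomal RNA, in their introns, and their spliced transcripts code for no long protein. Gas5 (chr1:161034422-161038539) measured 5.90, 5.94 and 5.52 in WT and 4.85, 4.68 and 4.45 in KO stress mice (-0.31 ± 0.07, limma adjusted p = 0.211). Epb41l4aos measured 0.668, 0.704 and 0.561 against 0.360, 0.442 and 0.408, the widest step of the 4 at -0.56 ± 0.13. The differences of 2410006H16Rik and Zfas1 were -0.41 ± 0.09 and -0.33 ± 0.12. None of the 4 passed the test in CD4 cells in either set. Without stress 3 of the 4, all but Epb41l4aos, also did not overlap, beside 6.24% of all listed genes lower without overlap. In CD8a cells of the stressed mice Gas5 fell (-0.41 ± 0.07, limma adjusted p = 0.0364), without overlap. In all, 22 of the 87 members carry GENCODE's tag for hosts of noncoding RNA, many of them ribosomal protein genes.

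The 8 heat shock members followed 1 mouse. Hsp90aa1, Hsp90ab1, Hspa8, Hsph1 and Hspe1 are chaperones, which help proteins fold, and Stip1, Ahsa1 and Ahsa2 are cochaperones that work with HSP90. All 8 were lower on average in KO stress mice (median -0.27), in none did the genotypes separate, and none passed the test (smallest limma adjusted p 0.504). WT stress mouse 3 was the highest of the 6 mice in all 8. Hsp90aa1 measured 2.58, 3.40 and 6.46 in WT and 4.01, 2.58 and 3.04 in KO stress mice. Hsph1, a chaperone of the HSP110 family, measured 0.328, 0.720 and 1.504 against 1.01, 0.489 and 0.387. Summed over the 8 genes, WT stress mice stood at 28.0, 30.6 and 52.9 and KO stress mice at 36.1, 27.6 and 30.1.

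Without WT stress mouse 3, 6 of the 8 were higher in KO mice and the median difference was 0.07. Leaving out any of the other 5 stressed mice kept all 8 lower. Among the 20 other listed genes of the heat shock list that are not members, the same mouse was highest in 8, and over the whole list of 27 genes 19 were lower with it and 9 without it. Sfpq, an RNA-binding protein of nuclear paraspeckles, and Chchd2, a small mitochondrial protein, had the same form. Sfpq stood at 1.52, 1.89 and 2.60 in WT and 1.93, 1.65 and 1.78 in KO stress mice. Chchd2 stood at 5.89, 5.79 and 8.78 against 6.64, 5.94 and 6.26, and both genes turned to higher in KO without WT stress mouse 3. In the unstressed mice 6 of the 8 heat shock members were lower and 2 higher, with a median of -0.05.

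The promoters of these genes were read for the heat shock element, the binding motif of the factor HSF1, since all 8 were highest in WT stress mouse 3. It was searched as TTC, GAA and TTC in a row, each separated by NN, and as its reverse complement, GAA, TTC and GAA, in 300-base windows from RefSeq (GRCm38.p6), 250 bases before to 50 after a start. Of the 8 members 5 had such a window, and Hsph1 and Hspe1 held the motif, beside 0.662% of 27025 genes. Over the whole heat shock list 4 of 22 genes with a window held it, among them Hspd1 and Chordc1, which are not members. The part of the motif in the values of WT stress mouse 3 was not tested. The window of Hspe1 has 2 overlapping matches on the plus strand, in capitals below, at chr1:55088051-55088079 and chr1:55088056-55088084. A match of letters is not evidence of a bound site.
Hspe1 match 1: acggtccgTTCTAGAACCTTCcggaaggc
Hspe1 match 2: ccgttctaGAACCTTCCGGAAggccccgc

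**Figure D3:**
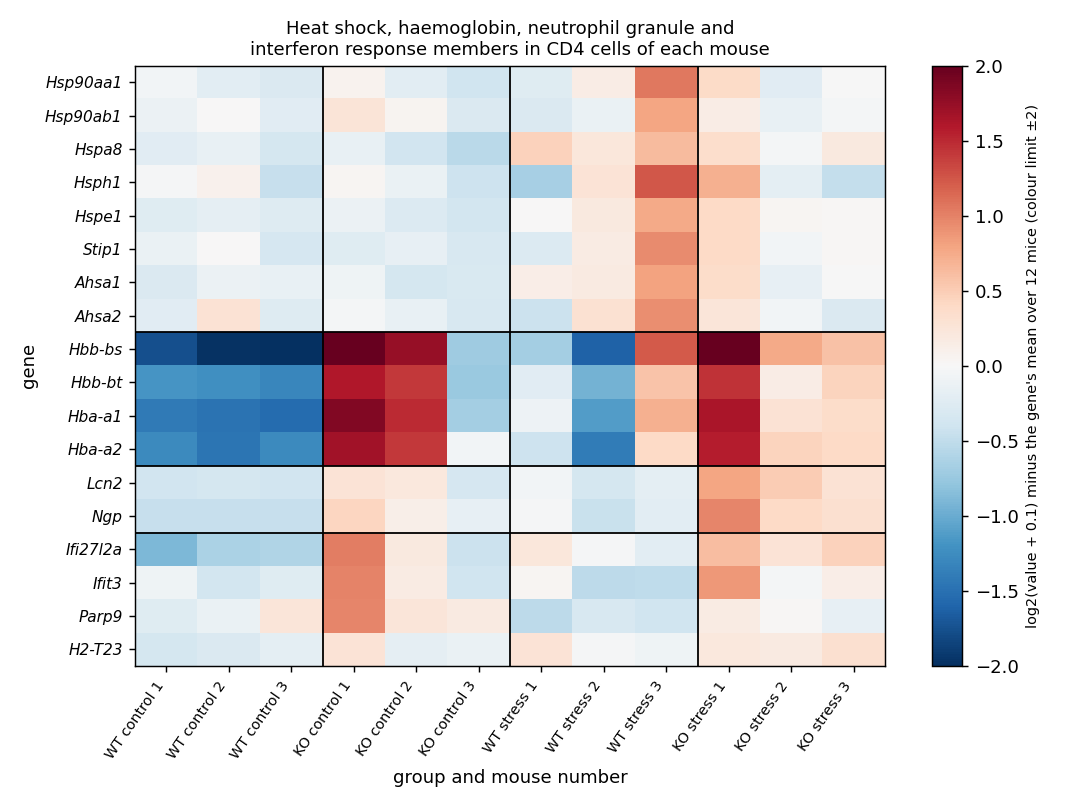
Level of 18 members in the CD4 cells of each of the 12 mice (columns), as log2(value + 0.1) minus the gene's mean over all mice, red above and blue below, with colours limited at ±2. The heat shock rows are reddest in WT stress mouse 3, and the haemoglobin rows are blue in the 3 WT mice without stress and red in KO mouse 1 of each condition.

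The 4 haemoglobin members, Hbb-bs and Hbb-bt of the beta chain and Hba-a1 and Hba-a2 of the alpha chain, are products of red cells and not of T cells. Of the members higher in KO mice they had the largest average differences after Gm28438, from 0.88 to 1.54, yet the genotypes overlapped in all 4 under stress. Hbb-bs measured 0.294, 0.107 and 1.37 in WT and 2.80, 0.965 and 0.849 in KO stress mice (1.54 ± 0.59, limma adjusted p = 0.504). KO stress mouse 1 was the highest and WT stress mouse 2 the lowest of the 6 in all 4 genes. The 4 genes are also the only listed ones of the erythroid marker list, and their sums were 0.732, 0.197 and 2.36 in WT and 5.08, 1.74 and 1.70 in KO stress mice. Red cells were lysed during preparation, and the part of residual red cell RNA in these values was not tested. Without KO stress mouse 1 the median difference of the 4 was 0.69, and without WT stress mouse 2 it was 0.66, against 1.11 with all mice.

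Without stress the haemoglobin genes separated completely, beside 19.6% of all listed genes higher without overlap. Hbb-bs measured 0.0857, 0.0611 and 0.0527 in WT and 2.94, 2.00 and 0.285 in KO mice (3.02 ± 0.62, limma adjusted p = 0.0757). Hba-a2 passed the test, at 0.0289, 0.0128 and 0.0287 against 0.898, 0.725 and 0.199 (2.35 ± 0.37, limma adjusted p = 0.0371). KO mouse 3 without stress was much lower than the other KO mice in all 4 genes.

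Lcn2 and Ngp, proteins of neutrophil granules, were higher in every KO stress mouse than in any WT stress mouse, beside 8.57% of all listed genes. Lcn2, the iron-siderophore binding protein lipocalin 2, measured 0.0254, 0.00179 and 0.0141 in WT and 0.125, 0.0846 and 0.0588 in KO stress mice (0.73 ± 0.15, limma adjusted p = 0.211). Ngp measured 0.0358, 0.00176 and 0.0190 against 0.170, 0.0829 and 0.0724 (0.79 ± 0.18, limma adjusted p = 0.211). The 2 genes also separated without stress, beside 19.6% of all listed genes higher without overlap. There Ngp was listed at 0 in all 3 WT mice and stood at 0.0854, 0.0497 and 0.0236 in KO mice. In CD8a cells of the stressed mice Ngp rose (0.61 ± 0.10, limma adjusted p = 0.0387). The 7 listed genes of the neutrophil marker list summed to 0.837, 0.592 and 0.779 in WT and 1.04, 0.941 and 0.815 in KO stress mice, which overlapped. Of these 7, 6 were higher and only S100a9 was lower, beside 56.1% of all listed genes higher. The 6 include Lcn2 and Ngp, which were listed from these mice. They also include S100a8, whose difference of 0.01 changed sign under some settings. The part of RNA from neutrophils in the T cell averages was not tested. B cell and MHC class II genes went the other way under stress, with 11 of 12 lower, beside 43.9% of all listed genes. Their sums were 7.37, 7.53 and 10.6 in WT and 5.94, 6.78 and 7.84 in KO mice, which overlapped. Without stress all 12 were higher on average in KO mice (median 0.50), in the direction of the neutrophil genes, of which all 7 were higher. In that comparison 66.2% of all listed genes were higher.

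Interferon-response members were split. Ifi27l2a, Ifit3 and Parp9, all induced by interferon, and H2-T23, which encodes the class Ib molecule Qa-1, were higher on average in KO stress mice. Ifi208, of the interferon-inducible HIN-200 family (chr1:173673675-173698395, plus strand), was lower. Ifi27l2a measured 10.6, 8.92 and 7.76 in WT and 13.97, 10.9 and 12.5 in KO stress mice (0.45 ± 0.11, limma adjusted p = 0.293), without overlap. Parp9, an ADP-ribosyltransferase family member, measured 0.276, 0.332 and 0.308 against 0.503, 0.447 and 0.384, also without overlap (0.42 ± 0.13). Ifit3 and H2-T23 overlapped, and KO stress mouse 1 carried the highest Ifit3 value of the 6, 0.413.

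Ifi208 was the one interferon member that passed the test. It measured 0.740, 0.664 and 0.720 in WT and 0.429, 0.344 and 0.355 in KO stress mice (-0.77 ± 0.12, limma adjusted p = 0.0435). The call was close to its threshold: it was lost with 1 as the added constant (adjusted p = 0.0588), without the mean-variance trend (0.05) and with mouse number as a block (0.179). It was lost also without any of the 3 WT stress mice or without KO stress mouse 2 or 3 (0.118 to 0.337). In the unstressed mice it fell as well, from 0.933, 1.15 and 0.982 in WT to 0.654, 0.590 and 0.648 in KO mice (-0.61 ± 0.10, limma adjusted p = 0.0371). Its neighbours in the family did not share the direction. Ifi213 measured 0.355, 0.462 and 0.362 in WT and 0.596, 0.513 and 0.390 in KO stress mice, and Ifi203 2.81, 2.87 and 3.55 against 3.94, 3.12 and 3.34. Genes of this family resemble each other in sequence, so the sharing of reads among them is uncertain. Of the 42 listed interferon-response genes, 35 were higher and 7 lower under stress (median 0.17), and 41 were higher without stress, all but Ifi208 (median 0.51), beside 66.2% of all listed genes.

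The promoters of the interferon members were read for the interferon-stimulated response element, a motif found in promoters of many interferon-induced genes. It was searched as GAAA, NN and GAAA in a row, and as its reverse complement with TTTC in place of GAAA, in the same RefSeq windows and was present in 3.99% of genes. Of the 5 members 3 had a window, and Ifi208, Ifit3 and H2-T23 all held it. The stretches shown carry the match in capitals: Ifi208 at chr1:173673597-173673626, plus strand, Ifit3 at chr19:34583363-34583392 and chr19:34583397-34583426, plus strand, and H2-T23 at chr17:36032806-36032835, minus strand. The H2-T23 stretch lies at -134 to -105 from the RefSeq start, but within the GENCODE M21 bounds of the gene, chr17:36029773-36032855. Ifit3 and H2-T23 were higher on average in KO stress mice but overlapped between the genotypes. The part of the motif in any of these differences was not tested.
Ifi208: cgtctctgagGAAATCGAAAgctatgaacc
Ifit3 match 1: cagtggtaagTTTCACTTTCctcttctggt
Ifit3 match 2: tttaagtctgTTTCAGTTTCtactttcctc
H2-T23: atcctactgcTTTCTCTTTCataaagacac

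Of the 10 members with roles in signalling, trafficking and the cell cycle, 8 were higher and 2 lower, and none passed the test under stress. Rab4a, a small GTPase of recycling endosomes (chr8:123805985-123835287), measured 0.0250, 0.0315 and 0.00994 in WT and 0.0786, 0.103 and 0.0706 in KO stress mice (0.59 ± 0.13, limma adjusted p = 0.211). Rab4a rose in the unstressed mice, from 0.00959, 0.0488 and 0.0190 to 0.125, 0.150 and 0.0994 (0.84 ± 0.14, limma adjusted p = 0.0383). It rose also in CD8a cells of the stressed mice (0.90 ± 0.12, limma adjusted p = 0.00685). Wdfy1, an endosomal adaptor of Toll-like receptor signalling, measured 0.0871, 0.0537 and 0.124 in WT and 0.215, 0.229 and 0.146 in KO stress mice (0.66 ± 0.17). It separated in both sets of mice without passing the test. Rell1, a relative of the TNF receptor family member RELT, was lower in both sets. It measured 0.0918, 0.141 and 0.106 in WT and 0.0287, 0.0328 and 0.0585 in KO stress mice (-0.60 ± 0.14, limma adjusted p = 0.215), and it fell in the unstressed mice (-1.01 ± 0.15, limma adjusted p = 0.032).

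Several members separated under stress but overlapped without it. Uvrag, which acts in autophagy and endosome traffic, measured 0.211, 0.273 and 0.297 in WT and 0.443, 0.499 and 0.398 in KO stress mice (0.60 ± 0.14). Without stress it stood at 0.569, 0.590 and 0.660 in WT and 0.492, 0.625 and 0.588 in KO mice, and the difference of the 2 differences was 0.69 ± 0.17 (limma adjusted p = 0.303). Klf3, a transcription factor of the Krüppel-like family, measured 1.34, 1.56 and 1.68 against 1.82, 2.07 and 2.17 under stress. Ccnd3, the D-type cyclin of lymphocyte proliferation, measured 2.87, 3.18 and 2.52 against 2.26, 2.23 and 2.32. Its difference was -0.31 ± 0.09 under stress and 0.16 ± 0.08 without it, and the difference between these was -0.47 ± 0.12 (limma adjusted p = 0.303). Arl4c, a small GTPase, was higher under stress at 2.88, 2.98 and 2.85 against 3.52, 3.53 and 3.79 (0.31 ± 0.07). For these genes a dependence of the genotype difference on stress was therefore not called.

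The last of this group lay near the limit of the values. Epha3, an ephrin receptor, was listed at 0 in 2 WT mice and 1 KO mouse under stress, and its average rests on KO stress mouse 3 at 0.0986. Eps8l1, an actin regulator, and Atp2b4, a plasma membrane calcium pump, overlapped between the genotypes, with differences of 0.55 ± 0.20 and 0.49 ± 0.23.

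Of the 5 RNA-binding and chromatin members, Hnrnpd, Ddx5, Prrc2c and H2az2 separated under stress with higher values in KO mice, beside 8.57% of all listed genes. Hnrnpd, which binds AU-rich elements of mRNA, measured 1.495, 1.59 and 1.17 in WT and 1.80, 1.86 and 1.88 in KO stress mice (0.37 ± 0.11), and it was the only one of the 4 that also separated without stress. H2az2, a histone H2A variant, measured 1.56, 1.43 and 1.59 against 1.76, 2.08 and 2.20 (0.37 ± 0.10). Among nuclear genes of mitochondrial and related proteins, Lars2, the mitochondrial leucyl-tRNA synthetase, measured 8.86, 10.0 and 9.38 in WT and 11.9, 10.6 and 11.6 in KO stress mice (0.27 ± 0.07). Mcee, of propionyl-CoA breakdown, and Plgrkt, a plasminogen receptor, were also higher without overlap, by 0.54 ± 0.16 and 0.32 ± 0.11. None of the 9 passed the test (smallest limma adjusted p 0.325).

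The 5 other transcripts all separated under stress, beside 8.57% of all listed genes higher and 5.57% lower without overlap. Gm47283, placed on chromosome Y at 90784738 to 90816464 and annotated as protein coding, measured 0.525, 0.665 and 0.812 in WT and 0.330, 0.00784 and 0.0658 in KO stress mice (-1.94 ± 0.38, limma adjusted p = 0.211). KO stress mouse 1 was far above the other KO mice, and without it the difference was -2.503 and was called (limma adjusted p = 0.00027). Without stress Gm47283 measured 0.486, 0.449 and 0.256 against 0.204, 0.181 and 0.0501. Gm42031, a noncoding RNA of chromosome 8, was at most 0.00369 in WT and at least 0.0437 in KO stress mice. Gm49980 rose in the unstressed mice, from 0.0746, 0.0628 and 0.0751 to 0.381, 0.258 and 0.181 (1.09 ± 0.18, limma adjusted p = 0.0371), and in CD8a cells of the stressed mice (0.81 ± 0.13, limma adjusted p = 0.0336). Dynlt2a2, a dynein light chain, and the noncoding E230001N04Rik were higher by 0.63 ± 0.17 and 0.56 ± 0.16 under stress. Of all 87 members 84 were matched to a position in GENCODE M21, on 22 chromosomes with the mitochondrial one included, and 3 lie on chromosome 3.

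The comparison of the unstressed mice asks whether the genotype difference of these genes is present without defeat, and it uses 6 other animals. Here S100a9 itself went against the label, as given above. In it 5 members rose (Gm28438, Gm19739, Gm49980, Hba-a2 and Rab4a) and 5 fell (mt-Nd3, Ifi208, Rell1, Rpl35 and Rpl38), beside 0.433% of all listed genes called higher and 0.2% called lower. With values centred on each mouse's median 9 rose and 15 fell, beside 1.03% and 1.2% of all listed genes. In 19 of the 87 members the KO mice lay above every WT mouse and in 32 below, beside 19.6% and 6.24% of all listed genes. Centred, the counts were 13 and 39, beside 9.84% and 14.7%. The share of members below was thus well over its background on both scales, and the share above was near it before centring. The number of calls depended on every mouse. Without WT mouse 2, WT mouse 3 or KO mouse 2, 1 member was called higher and 1 lower. Without KO mouse 1 the counts were 2 and 1, without WT mouse 1 they were 2 and 13, and without KO mouse 3 they were 14 and 6.

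In 79 of the 87 members (90.8%) the average difference had the same direction with and without stress, beside 53.4% of the 2912 listed genes that are not members. In 38 members (43.7%), 14 higher and 24 lower, the genotypes were separated in the same direction in both sets, beside 72 of the other 2912 genes (2.47%). Of the 24 lower in both sets 16 were ribosomal protein genes. The authors also listed 64 of the 87 for their comparison without stress.

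**Figure D4:**
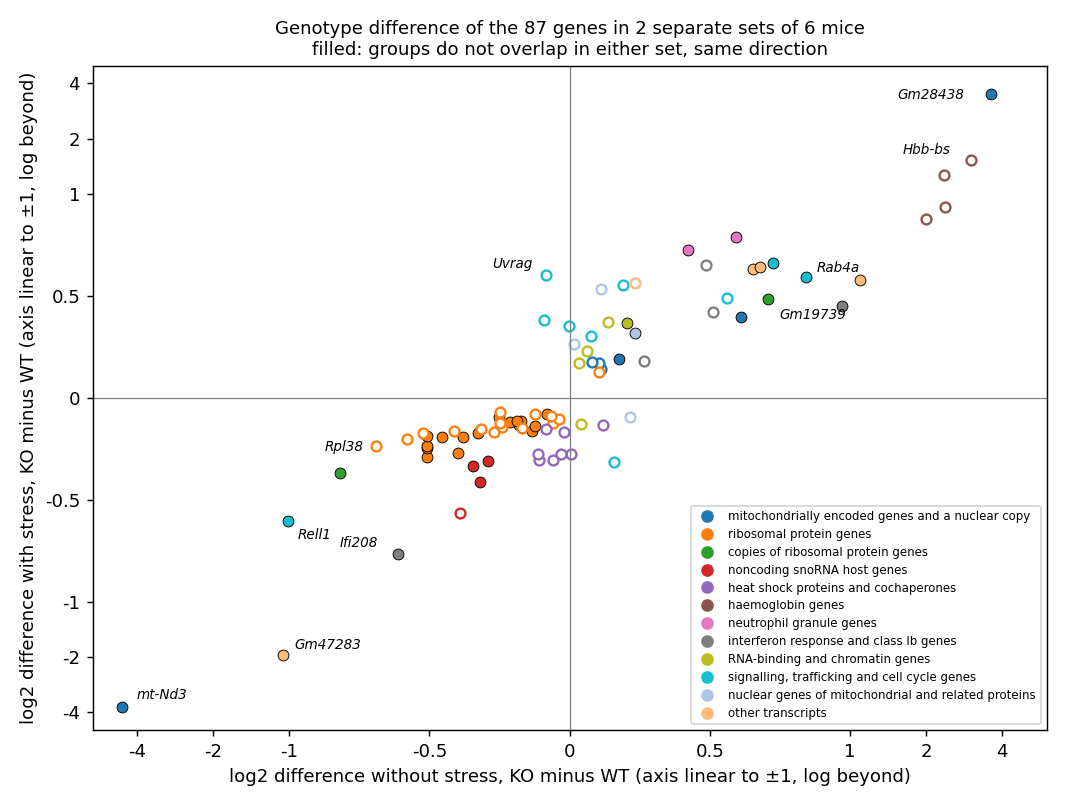
Genotype difference of the 87 genes without stress (x axis) and with stress (y axis), as KO minus WT log2 differences from 2 separate sets of 6 mice, with both axes linear to ±1 and logarithmic beyond. Filled points did not overlap in either set, and 79 of 87 points lie to the lower left or the upper right of the crossing of the 0 lines.

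Whether stress altered the genotype difference was tested as an interaction over all 12 mice, which include those used to list the genes. It called 0 of the 87 members and 0 of all 2999 genes by limma (0% called), and before adjustment 8 members were higher and 1 lower at p under 0.05, beside 2.6% and 6.87% of all listed genes. With 3 mice a group this does not show that the differences are alike: for Hbb-bs the interaction was -1.49 ± 0.98 and for mt-Nd3 0.86 ± 0.20, with limma adjusted p of 0.575 and 0.223.

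In the CD8a cells of the same stressed mice 81 of the 87 members had values. Of these, Gm28438, Rab4a, Gm49980 and Ngp rose and mt-Nd3 and Gas5 fell, beside 0.14% of 2851 listed CD8a genes called higher and 0.0702% called lower. With values centred on each mouse's median 4 rose and 4 fell, beside 0.14% and 0.175%. Without WT mouse 1 or 2 the counts were 1 and 1, without WT mouse 3 they were 4 and 6, and without KO mouse 1, 2 or 3 they were 2 and 2, 7 and 2, and 2 and 1. In 21 members the KO mice lay above and in 34 below every WT mouse, beside 10.7% and 5.4% of listed CD8a genes. The CD8a and CD4 cells come from the same spleens and libraries, so this is the same set of mice seen in other cells and not a replicate. The 31 ribosomal members had 30 lower there too, with 26 separated. The 8 heat shock members were all lower on average with 0 separated. As in CD4 cells, WT stress mouse 3 was the highest of the stressed mice in all 8. Hsp90aa1 measured 2.20, 2.98 and 5.06 in WT and 3.06, 2.49 and 2.36 in KO stress mice in CD8a cells.

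The effect of stress itself on the members is given for each genotype side by side, since the 2 stress comparisons share mice with the genotype comparisons. In WT mice 41 members were called higher and 14 lower with stress, beside 23.7% and 27.7% of all listed genes, and in KO mice 37 and 12, beside 11.3% and 28.1%. Of the 31 ribosomal members 27 rose with stress in WT and 30 in KO mice, with median differences of 0.42 and 0.57. Uvrag and Klf3 had stress differences of -0.98 and -1.04 in WT and -0.29 and -0.56 in KO mice.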

How the data were processed

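Erythrocytes were lysed in spleen suspensions from 12 mice, and single cells were sequenced with 10x Genomics 3′ v2 chemistry, per the labels' protocols. The submitters' processing notes name Cell Ranger 2.1.1 and mm10. The filters on cells, the handling of doublets, the calling of CD4 and CD8a cells and the rule for listing genes are not given in the sources used here. Deposited by the authors is a signal, the average expression per gene and mouse, per the file headers. Values are linear and not whole, so depth is unknown and no counting interval or limit of detection is given.

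Values were taken as log2(value + 0.1) and fitted with limma 3.58.1 in R 4.3.3 (moderated variances with a trend, two-sided), 3 mice against 3, over all 2999 CD4 or 2851 CD8a genes listed in any table of that cell type. The listed genes are themselves selected, so the background is one of selected genes. P-values were adjusted by the Benjamini-Hochberg method and called under 0.05. The added constant understates differences of low genes. The scripts were tested on simulated data. Same-numbered mice did not pair: correlations of their deviations from group means lay between -0.11 and 0.09. No 2 mice had identical values (0 pairs). The members, their roles and the gene lists were chosen with earlier results of these data known. All members may be named. Positions and copies come from GENCODE M21 and promoters from RefSeq (GRCm38.p6), which gave a window for 60 of the 87 members. Alternatives were other added constants, removal of the lowest 25% of genes, 2 other scalings, no trend, mouse weights, a mouse-number block, a fit of all 4 groups, a fit over the authors' table alone and leaving out each mouse.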

Additional observations from a re-analysis of the deposited data

Results flagged for a closer look

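S100a9 differed between the 2 conditions in the direction of its genotype difference. It was lower in all 3 KO mice than in any WT mouse with stress (-0.61 ± 0.14) and higher in all 3 without stress (0.39 ± 0.09). The difference of these differences was -0.99 ± 0.17 on the log2 scale, with limma adjusted p = 0.0686 over the 2999 listed genes, which missed the threshold. Its highest value was 0.111 units, and in WT mice it was higher with stress (0.111, 0.0595 and 0.106) than without (0.00449, 0.0167 and 0.0119).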

How the results depend on the processing

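Under stress, 1 member was called higher under every alternative fitted over all listed genes, and 2 were called lower except that 1 was called with 1 as the added constant, with no trend and with the mouse-number replicate block; the authors' table alone gave 13 and 16. Leaving out a mouse gave 1 to 1 higher and 1 to 4 lower. Without stress, the 5 higher became 11 with a constant of 0.01, 2 without the lowest 25% of genes, and 5 higher and 5 lower became 1 and 1 with a constant of 1 and with no trend, 9 and 15 when centred, 14 and 16 with mouse weights, 10 and 14 with the mouse-number block, 11 and 19 in a fit of all 4 groups, and 10 and 20 over the table alone. Leaving out a mouse gave 1 to 14 higher and 1 to 13 lower. In CD8a cells the 4 higher became 2 without the lowest genes. The 2 lower there became 1 with a constant of 1 and with no trend, 4 when centred and with mouse weights, and 6 in a fit of all 4 groups. The table alone gave 14 and 24, and leaving out a mouse 1 to 7 and 1 to 6. The interaction called 0 in every alternative run. The mice share only a number, so the block stands for no known pairing. Over all alternatives, 1529 values of single genes kept their direction and call, 82 lost the call, 30 gained it and 14 reversed.

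Over leaving out each stressed mouse in turn, the difference ranged from -0.34 to 0.20 for Hsp90ab1, -0.56 to 0.0902 for Hsp90aa1, -0.75 to 0.21 for Hsph1, -0.32 to 0.0506 for Hspe1, -0.65 to 0.0249 for Ahsa2, -0.43 to 0.18 for Stip1, -0.30 to 0.0715 for Sfpq and -0.19 to 0.10 for Chchd2, in each with the sign turned only without WT stress mouse 3; the cause was not tested. S100a8, at 0.01, turned to -0.00114 with a constant of 1, -0.0094 when centred and -0.00324 when scaled, and ranged from -0.13 to 0.22, below 0 without WT stress mouse 2, WT stress mouse 3 or KO stress mouse 1. Other named genes kept their direction in every alternative run.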

Other observations

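Mouse 1 of the KO group carried the highest values of several unrelated members in both conditions. Under stress it was the highest of the 6 mice in all 4 haemoglobin genes and had the highest Lcn2 (0.125), Ngp (0.170), Ifit3 (0.413) and Ifi27l2a (13.97). Without stress mouse 1 of the KO group again had the highest Ifi27l2a (18.4), Ifit3 (0.460), Parp9 (0.962) and Hbb-bs (2.94). The 2 are different animals that share only a number, and these genes were picked after their values were seen.

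The 87 members summed to 1510, 1526 and 1455 units in WT and 1420, 1393 and 1362 in KO stress mice, without overlap. Without stress they summed to 1147, 1193 and 1276 in WT and 1041, 1092 and 1066 in KO mice, again without overlap. The totals of all 2999 listed genes did not overlap either. They were 8225, 8205 and 8161 in WT and 8130, 8152 and 8120 in KO stress mice. Without stress they were 7503, 7557 and 7562 in WT and 7367, 7411 and 7437 in KO mice. The members were listed from the stressed mice. Most of their sum came from the 31 ribosomal members, with means of 1280 in WT and 1159 in KO stress mice.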
